A study of Mus musculus with 6 samples.

Results

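The constitutive proteasome genes were described in mouse heart as the 36 rows of the deposited table whose symbols name an alpha or beta subunit of the core particle (Psma and Psmb) or an ATPase or non-ATPase subunit of the regulatory particle (Psmc and Psmd). The 3 interferon-inducible catalytic subunits Psmb8, Psmb9 and Psmb10 were left out. The 36 genes were 16 core genes and 20 regulatory genes, of 24525 gene rows in all. RNA from heart tissue of mice aged 3 to 6 months was sequenced in 6 libraries, 3 labelled DKO (replicates 7, 8 and 9) and 3 labelled WT (replicates 4, 5 and 6). The DKO genotype was Mbnl1-/-; Mbnl2cond/cond; Myh6-Cre+/-: Mbnl1 was inactivated in every cell, and the conditional Mbnl2 alleles were targeted by Cre recombinase under the cardiomyocyte promoter of Myh6. The labels give no allele for WT beyond that name. MBNL proteins regulate alternative splicing and are sequestered by expanded repeats in myotonic dystrophy. The comparison asks how RNA levels in the heart differ when both genes are targeted.

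The proteasome degrades proteins that carry ubiquitin chains. Its core particle is a barrel of stacked alpha and beta rings: the alpha rings gate the entrance, and Psmb5, Psmb6 and Psmb7 carry the peptide-cutting sites inside. The regulatory particle caps the barrel with a base, whose ATPases unfold the substrate, and a lid, which removes the ubiquitin chain. Cardiomyocytes depend on this system to renew sarcomere proteins.

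Levels are in TPM, an abundance corrected for transcript length and for the total of each library, so that different subunits can be set side by side. A difference is the DKO mean of log2(TPM + 1) less the WT mean, fitted by limma across the 14541 genes that reached 1 TPM in 3 or more libraries. A gene was called at a Benjamini-Hochberg adjusted p under 0.05 over all these genes. The depth behind a TPM value is unknown. The labels do not tie each library to its own mouse, and p-values measure only the spread among these libraries, which may be technical.

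Several facts of the libraries bear on all results. The labels of DKO 7 disagree: the genotype tag says WT, the title and the source name say DKO, and the library was kept in DKO. Xist stood at 152 TPM in DKO 7 and 174 TPM in DKO 8, whereas DKO 9 and the 3 WT libraries had Y-linked transcripts. Mbnl1 was lower in DKO (102, 108 and 108 TPM, against 161, 160 and 145 TPM in WT) and Mbnl2 higher (227, 240 and 245 TPM, against 189, 168 and 149 TPM), and gene-level sums do not check either deletion. Summed markers of cardiomyocytes (6 of 6 detected) were 28467 to 30313 TPM in DKO and 33916 to 35933 TPM in WT. Of these, 4 lay entirely below WT, Tnnt2 overlapped, and Actn2 lay above (1609 to 1788 TPM, against 1399 to 1470 TPM in WT). Summed markers of macrophages (6 of 6 detected) were 279 to 394 TPM in DKO and 122 to 192 TPM in WT. Of these, 5 lay entirely above WT, and Cd68 overlapped. Summed markers of fibroblasts (6 of 6 detected) were 1109 to 1366 TPM in DKO and 878 to 907 TPM in WT. Of these, 4 lay entirely above WT, and Pdgfra and Dcn overlapped. Summed endothelial markers were 395 to 448 TPM in DKO and 440 to 489 TPM in WT. Cdh5 and Tie1 lay entirely below WT, and Pecam1 and Kdr overlapped. Summed erythroid markers were 1781 to 6763 TPM in DKO and 6042 to 38458 TPM in WT. Hbb-bt and Alas2 lay entirely below WT, and Hba-a1, Hba-a2 and Hbb-bs overlapped. In whole tissue, fewer cells of a type and less RNA per cell cannot be told apart. The part of cell makeup in the results below was not tested.

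The summed RNA of the constitutive proteasome overlapped between the genotypes. All 36 members passed the expression filter, with at least 1 TPM in every library. The 16 core genes summed to 2069, 2093 and 2140 TPM in DKO 7, 8 and 9, against 2199, 1998 and 2154 TPM in WT 4, 5 and 6. The 20 regulatory genes summed to 1805, 1764 and 1811 TPM in DKO, against 1769, 1688 and 1834 TPM in WT. The 3 DKO sums lay inside the range of the 3 WT sums for both particles, and the ratio of DKO to WT means was 0.992 for the core and 1.02 for the regulatory particle. The whole set took between 0.369% (WT 5) and 0.399% (WT 6) of all TPM.

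Gene by gene, 1 of 16 core members was lower and none higher (Psmb2), and 1 of 20 regulatory members was higher and none lower (Psmd10). The 2 called members are 5.56% of the 36, against 10.7% of all 14541 genes tested. By direction, 6.51% of all genes were called higher and 4.22% lower. An unadjusted p under 0.05 was found for 7 members (19.4%), against 27% of all genes tested. They were 1 of 16 core genes (6.25%) and 6 of 20 regulatory genes (30%), the latter share near that of all genes. A difference between the particles was not tested, and the counts moved with the settings. Core and regulatory counts were 1 and 7 without a filter and 3 and 5 with median-ratio scaling. With replicate 7 as WT they were 2 and 0. The median log2 difference was -0.04 over the core and 0.02 over the regulatory particle, beside 0.03 over all genes tested. The median size of the difference, whatever its sign, was 0.09 for members and 0.20 for all genes tested. The 95% interval of the difference lay within 0.5 of 0 for 30 of 36 members (83.3%), against 40% of all genes tested. The members outside that limit were Psmb2, Psma7, Psma8 and Psmb11 in the core and Psmd4 and Psmd10 in the regulatory particle. The median SD within groups was 0.09 for members on the log2 scale, against 0.17 for all genes tested. All genes tested include genes near 1 TPM, and they were not matched to the members by level. The low-level Psma8 and Psmb11 had a median SD of 0.41. Among lists described below, the median SD was 0.10 for associated factors, 0.08 for ubiquitin and segregase genes and 0.10 for muscle ligases. For the inducible genes it was 0.38.

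**Figure D1:**
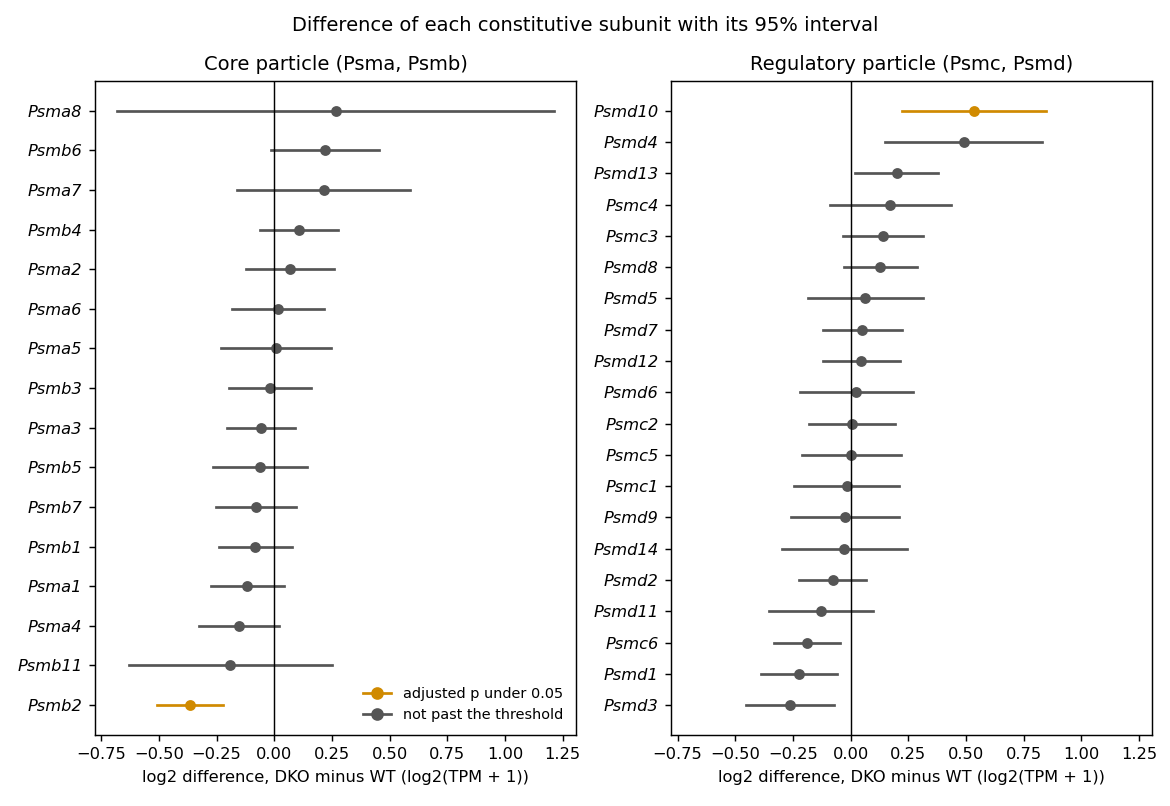
Log2 difference (DKO minus WT, log2(TPM + 1) scale) of each constitutive proteasome gene, with dots for the estimate and lines for its 95% interval from limma. Psmb2 at -0.37 and Psmd10 at 0.54 passed the adjusted threshold, and most other intervals cross 0.

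In the core particle, the alpha ring showed no called gene. None of its 7 common subunits, Psma1 to Psma7, was called by limma, and 0 had an unadjusted p under 0.05. Their differences ranged from -0.15 to 0.21. Groups did not overlap for Psma1 and Psma4. Psma4 had 131, 135 and 120.4 TPM in DKO, against 151, 137 and 143 TPM in WT, a difference of -0.15 (limma, BH adjusted p = 0.229). Psma1 had 116, 124 and 129 TPM in DKO, against 131, 132 and 138 TPM in WT, a difference of -0.12 (limma, BH adjusted p = 0.313). For both, every DKO value was below every WT value, and the difference missed the threshold. Psma7 had the widest interval of the ring, with 202, 156 and 191 TPM in DKO, against 186, 127 and 162 TPM in WT and an interval from -0.16 to 0.59. Psma2, Psma3, Psma5 and Psma6 overlapped between the genotypes.

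Psmb2, a non-catalytic subunit of the beta ring, was the core gene that fell. It had 103, 95.7 and 97.0 TPM in DKO 7, 8 and 9, against 126, 125 and 130.1 TPM in WT 4, 5 and 6. The highest DKO value was well under the lowest WT value. On the log2 scale the difference was -0.37, with an SE of 0.06 and a 95% interval of -0.51 to -0.22 (limma, BH adjusted p = 0.0153). The mean level in DKO was 0.774 of that in WT. The gene lies on chromosome 4, 126677637 to 126709715 (GRCm38), and overlaps no other gene in GENCODE M21. Its call was lost without DKO 8 (limma, BH adjusted p = 0.0587), DKO 9 (0.0504) or WT 6 (0.0582), while the difference stayed between -0.40 and -0.35 in the 6 fits that left out 1 library. It was also lost without trend (0.0507), with a term for sex-linked transcripts (0.143), in the 4 Y-linked libraries alone (0.176) and with replicate 7 as WT (0.501). The other non-catalytic beta subunits, Psmb1, Psmb3 and Psmb4, were not called, with differences between -0.08 and 0.11.

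None of the 3 catalytic subunits was called. Psmb5, the chymotrypsin-like subunit, had 145, 151 and 165 TPM in DKO, against 175, 148 and 158 TPM in WT. The groups overlapped, and the difference of -0.06 had a 95% interval of -0.27 to 0.14 (limma, BH adjusted p = 0.690). Psmb7, the trypsin-like subunit, had 237, 229 and 243 TPM in DKO, against 261, 228 and 261 TPM in WT. Its difference was -0.08 with an interval of -0.25 to 0.10 (limma, BH adjusted p = 0.551). Psmb6, the caspase-like subunit, had 138, 168 and 154 TPM in DKO, against 144, 121 and 129.9 TPM in WT. Its difference of 0.22 had an interval of -0.02 to 0.45 (limma, BH adjusted p = 0.213), and DKO 7 overlapped with WT 4. None of the 3 had an unadjusted p under 0.05.

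Psma8 and Psmb11 are known for other tissues and were found at low levels here. Psma8, an alpha subunit of male germ cells, had 4.01, 1.67 and 4.93 TPM in DKO, against 4.23, 2.73 and 1.34 TPM in WT, with an interval of the difference from -0.68 to 1.21. Psmb11, the catalytic subunit of thymic cortical epithelium, had 5.50, 7.06 and 5.32 TPM in DKO, against 8.14, 7.39 and 5.44 TPM in WT, with an interval from -0.63 to 0.25. Both were below every common subunit and overlapped between the genotypes. Germ cell markers Ddx4, Sycp3 and Tex11 summed to 0.162 to 1.57 TPM in DKO and 0.223 to 1.42 TPM in WT. Thymus markers Foxn1, Rag1 and Ptcra summed to 3.14 to 5.13 TPM in DKO and 3.48 to 6.49 TPM in WT. Nearly all of that was Ptcra, a gene of developing T cells, at 3.14 to 4.97 TPM in DKO and 3.48 to 6.49 TPM in WT. Foxn1, the factor that defines thymic epithelium, was listed at 0.110, 0 and 0.104 TPM in DKO and at 0 in WT. The part of these cells in the levels of Psma8 and Psmb11 was not tested.

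**Figure D2:**
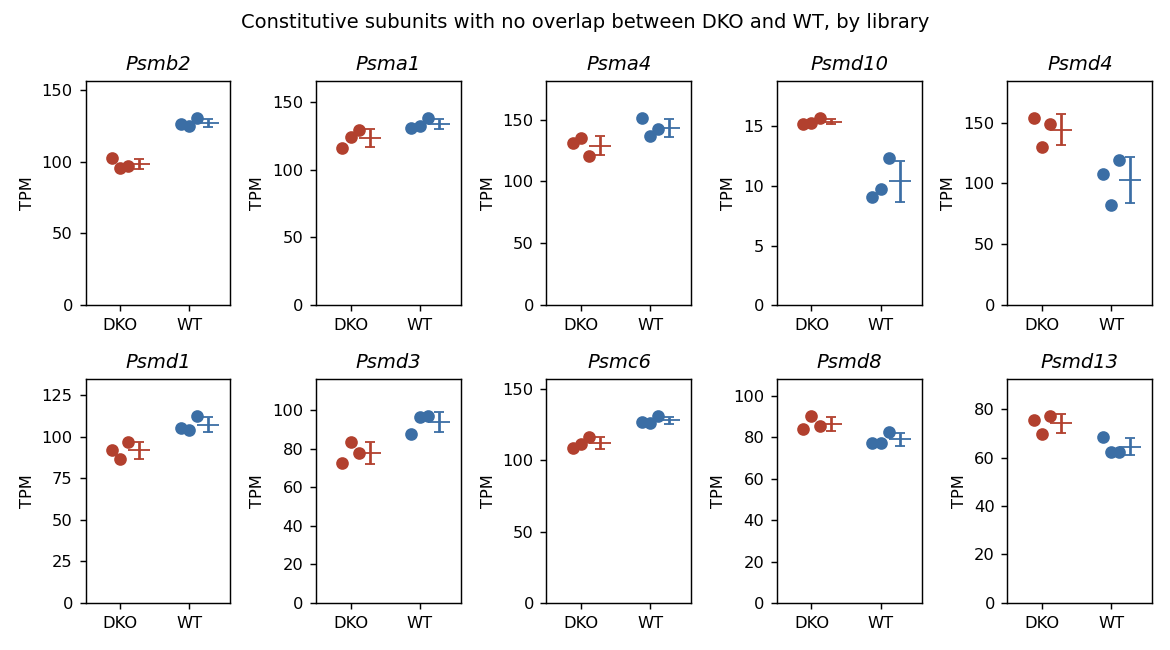
TPM of the 10 constitutive proteasome genes whose 3 DKO values lie entirely above or below the 3 WT values; dots are libraries, and bars give mean and SD (n = 3 each). The separation is widest relative to the spread for Psmb2, and Psmd4 shows 1 WT library, WT 5 at 82.4 TPM, below the rest.

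Groups did not overlap for 10 of 36 members (27.8%), against 33% of all genes tested, so the count itself is near the background. They were 3 of 16 core genes (18.8%), all below WT, and 7 of 20 regulatory genes (35%), 4 above and 3 below WT. Of all genes tested, 19.1% lay above and 13.8% below WT in this way. All 10 are shown in the plot of values by library.

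In the regulatory particle, single genes of the base and lid lay on both sides of WT, and none was called. Of the 6 ATPases of the base, Psmc1 to Psmc6, limma called none and 1 had an unadjusted p under 0.05. That gene was Psmc6, with 108, 111 and 117 TPM in DKO, against 127, 126 and 131 TPM in WT, a difference of -0.19 (SE 0.06; limma, BH adjusted p = 0.0937). Psmc1, Psmc2 and Psmc5 had differences between -0.02 and 0.01, and Psmc3 and Psmc4 differed by 0.14 and 0.17, all with overlapping groups. Of the 3 other base proteins, limma called none and 2 had an unadjusted p under 0.05. Psmd1, a scaffold of the base, had 92.0, 86.8 and 96.6 TPM in DKO, against 105, 104 and 112 TPM in WT, a difference of -0.22 (SE 0.07; limma, BH adjusted p = 0.0891). Psmd2, the other scaffold, differed by -0.08.

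Psmd4, a receptor for ubiquitin chains, had the second largest difference of all members. It had 153, 129.5 and 149 TPM in DKO 7, 8 and 9, against 108, 82.4 and 119 TPM in WT 4, 5 and 6. All DKO values were above all WT values, and WT 5 was the lowest library. The difference was 0.49 (SE 0.14) with a 95% interval of 0.15 to 0.83, and it missed the threshold (limma, BH adjusted p = 0.0774). It was 0.34 without WT 5, and it passed when TPM was rescaled without haemoglobin and structural RNA (0.47; limma, BH adjusted p = 0.0440). WT 5 had the most haemoglobin, 3.83% of TPM against 0.321% to 1.41% in the other libraries, and was the lowest library for 11 of the 36 members and the highest for 1.

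Of the 8 lid genes, limma called none and 2 had an unadjusted p under 0.05, a share of 25% beside the 27% of all genes. Psmd3, a structural lid subunit, had 72.4, 83.7 and 78.0 TPM in DKO, against 87.7, 96.7 and 97.0 TPM in WT, a difference of -0.26 (SE 0.08; limma, BH adjusted p = 0.0875). Psmd13, another structural subunit, went the other way, with 75.7, 69.8 and 77.1 TPM in DKO, against 68.6, 62.3 and 62.4 TPM in WT (0.20; limma, BH adjusted p = 0.144). The groups of neither gene overlapped. Psmd13 shares ground on the opposite strand with Sirt3 (28.1 to 42.5 TPM). Psmd8 was also above WT in all DKO libraries, by 0.13 (limma, BH adjusted p = 0.265). Psmd14, the lid enzyme that removes ubiquitin chains, had 50.2, 52.5 and 48.8 TPM in DKO, against 47.5, 61.0 and 46.9 TPM in WT, with an interval of the difference from -0.30 to 0.24. The remaining lid genes Psmd6, Psmd7, Psmd11 and Psmd12 differed by -0.13 to 0.05 and overlapped between the genotypes.

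Psmd5, Psmd9 and Psmd10 are chaperones that help assemble the base and are not part of the finished particle. Psmd10, also known as gankyrin, was the regulatory gene that rose. It had 15.2, 15.3 and 15.7 TPM in DKO 7, 8 and 9, against 9.10, 9.74 and 12.3 TPM in WT 4, 5 and 6. The DKO values were tightly grouped and all above WT, of which WT 6 was the closest. The difference was 0.54 (SE 0.13; limma, BH adjusted p = 0.0477), with a 95% interval of 0.22 to 0.85, and DKO had 1.48 times the WT mean. Psmd10 lies on the X chromosome (140948425 to 140956711, GRCm38). With the term for sex-linked transcripts the difference was 0.56, and the call was lost (limma, BH adjusted p = 0.278). In the libraries with Y-linked transcripts alone the difference was also 0.56. Both estimates rest on DKO 9, the only DKO library with Y-linked transcripts, against WT. The part of sex in the Psmd10 difference was not tested. The call held without WT 6 (limma, BH adjusted p = 0.0426) and was lost in the 5 fits that left out WT 4, WT 5, DKO 7, DKO 8 or DKO 9 (0.109 to 0.123). It was also lost with median-ratio scaling (0.0505), quantile scaling (0.0547), no trend (0.0563), array weights (0.0572), no filter (0.105) and replicate 7 as WT (0.525). Psmd5 (19.0 TPM in DKO and 18.1 TPM in WT on average) and Psmd9 (14.9 TPM in DKO and 15.1 TPM in WT) were not called.

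The promoter sequences of 4 members are shown because Psmd10 rose, Psmd4 had the next largest difference, and Psmb5 and Psmb6 are catalytic genes that were not called. They are the 250 bases before the annotated start, read 5′ to 3′ on the gene's strand (RefSeq, GRCm38.p6). Capitals mark 3 motifs searched on both strands: the CCAAT box bound by NF-Y, TGACNNNGC, the core of the antioxidant response element bound by NFE2L1 and NFE2L2, and the GC box GGGCGG.
Psmd10 (chrX:140956712-140956961, minus strand): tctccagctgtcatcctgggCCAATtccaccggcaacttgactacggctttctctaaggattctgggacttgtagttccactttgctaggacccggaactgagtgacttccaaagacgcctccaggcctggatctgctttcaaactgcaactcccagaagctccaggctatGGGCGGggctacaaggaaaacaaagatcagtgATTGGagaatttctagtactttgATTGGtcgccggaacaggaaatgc
Psmd4 (chr3:95042615-95042864, minus strand): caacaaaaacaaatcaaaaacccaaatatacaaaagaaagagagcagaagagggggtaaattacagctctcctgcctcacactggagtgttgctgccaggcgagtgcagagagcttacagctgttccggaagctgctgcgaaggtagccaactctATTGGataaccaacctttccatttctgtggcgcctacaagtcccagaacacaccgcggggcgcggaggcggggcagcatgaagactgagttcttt
Psmb5 (chr14:54617996-54618245, minus strand): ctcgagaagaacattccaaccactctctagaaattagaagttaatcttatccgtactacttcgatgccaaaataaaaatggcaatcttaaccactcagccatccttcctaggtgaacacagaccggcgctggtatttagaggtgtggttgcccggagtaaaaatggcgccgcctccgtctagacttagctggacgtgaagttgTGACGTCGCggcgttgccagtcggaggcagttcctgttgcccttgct
Psmb6 (chr11:70525107-70525356, plus strand): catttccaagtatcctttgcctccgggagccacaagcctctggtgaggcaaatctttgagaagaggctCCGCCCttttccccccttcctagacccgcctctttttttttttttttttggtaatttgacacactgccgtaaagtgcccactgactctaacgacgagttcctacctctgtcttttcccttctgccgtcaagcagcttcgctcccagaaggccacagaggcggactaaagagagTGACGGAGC

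Psmb5 and Psmb6 each held 1 match to TGACNNNGC, starting 47 and 9 bases before the RefSeq start. Other gene coordinates for the same build start Psmb6 at chr11:70525324, inside the printed stretch. By those coordinates the Psmb6 match lies within the gene. Psmd10 held 3 CCAAT matches and 1 GC box, and Psmd4 held 1 CCAAT match. Of the 36 members, 29 had a promoter in the RefSeq table, with 31 promoters in all. TGACNNNGC was in 5 of these 31 (16.1%), those of Psmb5, Psmb6, Psmc6, Psmd9 and Psmd12, against 10.2% of all 32851 promoters of the same length. CCAAT was in 12 (38.7%) against 33.85% of all promoters, and GGGCGG in 17 (54.8%) against 32.7%. All promoters were not limited to genes expressed in these libraries, and they were not matched to the members by level. Of the 5 genes with TGACNNNGC none was called in the main fit, and 5 genes are too few to set against the 10.7% of all genes called. Psmc6, among these genes, was called with median-ratio scaling (limma, BH adjusted p = 0.0433). Psmb2, the member that fell, had no entry in the promoter table. A match is a description of these letters and not a binding site.

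Of 10 listed regulators, which include factors known to bind such promoters, limma called none, and 0 had an unadjusted p under 0.05. The shares over all genes tested were 10.7% and 27%. Groups did not overlap for 2 of the 10 (20%), both above WT, against 33% of all genes tested. Nfyc had 58.9, 64.2 and 65.0 TPM in DKO, against 56.5, 56.6 and 54.4 TPM in WT (0.16; limma, BH adjusted p = 0.191). Sp1 had 28.6, 30.4 and 30.0 TPM in DKO, against 27.9, 28.1 and 28.1 TPM in WT (0.08; limma, BH adjusted p = 0.558). Nfe2l1, the factor that raises proteasome gene expression when proteasomes are inhibited, had 293, 309 and 304 TPM in DKO, against 300.2, 315 and 323 TPM in WT. Nfe2l2, the oxidative stress factor, had 67.3, 67.0 and 68.7 TPM in DKO, against 57.2, 69.4 and 66.7 TPM in WT. The groups overlapped for both, with 95% intervals of the difference from -0.19 to 0.09 and from -0.13 to 0.28.

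Subunits that occur in equal numbers within 1 particle, core or regulatory, were unequal in RNA. Leaving out Psma8, Psmb11 and the chaperones, the 31 stoichiometric genes ranged in DKO from 50.5 TPM (Psmd14) to 248 TPM (Psmb4), a 4.91-fold span. In WT they ranged from 51.8 TPM (Psmd14) to 249.9 TPM (Psmb7), a 4.83-fold span. Both spans run from a regulatory gene to a core gene. Within the core the span was 3.69-fold in DKO and 3.75-fold in WT. Within the regulatory particle it was 3.57-fold in DKO and 3.16-fold in WT. Core genes sat higher, with a median of 151 TPM in DKO and 148 TPM in WT, than regulatory genes, with a median of 96.2 TPM in DKO and 95.5 TPM in WT. The order of the 31 genes was nearly the same in the genotypes (Spearman rho 0.952 across genes, which share libraries and are not independent). The core sum was between 1.15 and 1.19 times the regulatory sum in the 3 DKO libraries and between 1.17 and 1.24 times in the 3 WT libraries.

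**Figure D3:**
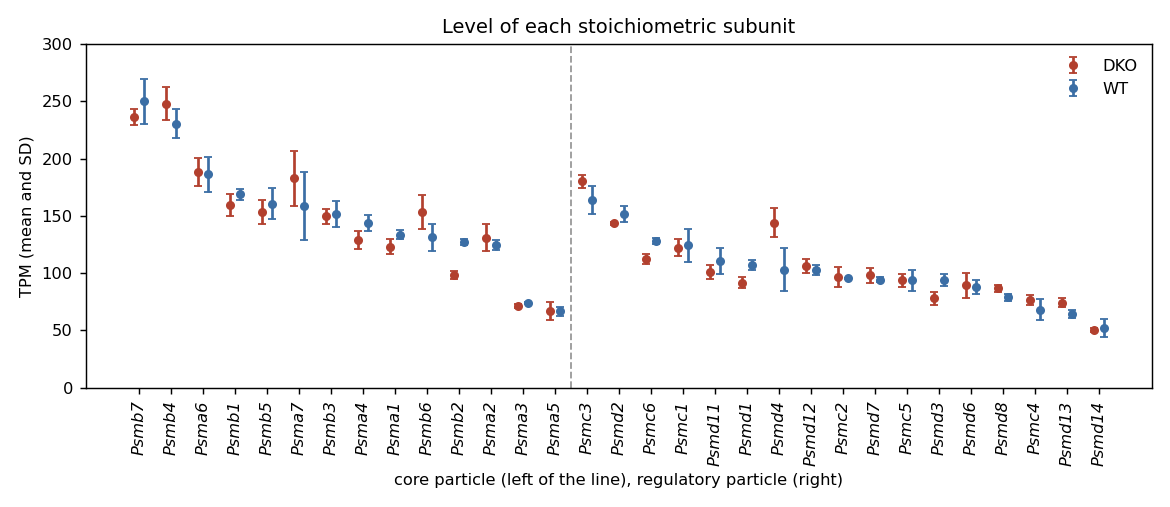
Mean TPM and SD (n = 3 each) of the 31 stoichiometric subunits in DKO and WT, ordered by WT level within the core (left of the dashed line) and the regulatory particle (right). The profile of high and low subunits is shared. The SD bars of 7 of the 31 genes do not meet: Psmb2, Psmc6, Psmd1, Psmd3, Psmd4, Psmd8 and Psmd13. The share of all genes tested with such bars was not computed, so the count only describes the plot.

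The inducible catalytic subunits Psmb8, Psmb9 and Psmb10 replace Psmb5, Psmb6 and Psmb7 when interferon signalling is active, and they were set beside these to show where the constitutive genes differ. The 3 inducible genes summed to 212, 118 and 73.0 TPM in DKO 7, 8 and 9, against 86.1, 55.0 and 61.8 TPM in WT. The 3 constitutive genes summed to 519.6, 548 and 561 TPM in DKO, against 580.3, 496 and 549 TPM in WT. DKO 7 was the highest inducible library by far, DKO 9 was below WT 4, and the constitutive sums overlapped. The inducible share of catalytic TPM was 29.0%, 17.7% and 11.5% in DKO 7, 8 and 9, against 12.9%, 9.97% and 10.1% in WT.

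**Figure D4:**
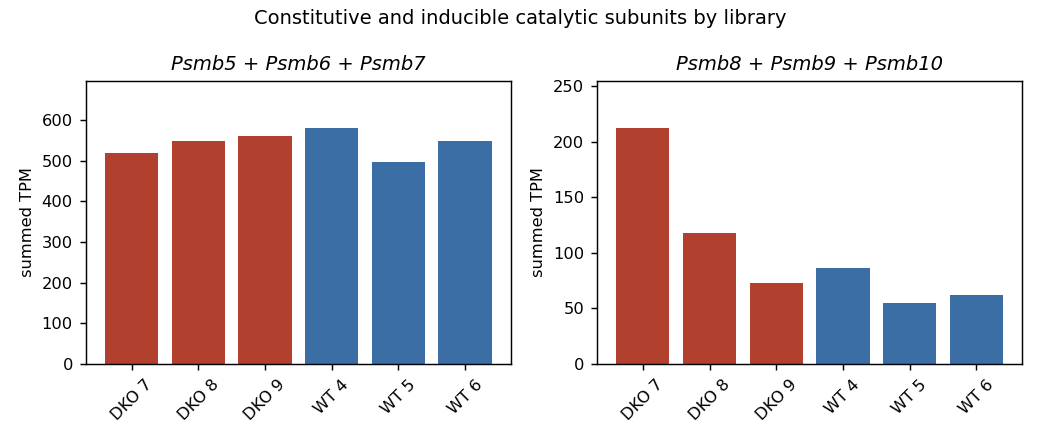
Summed TPM of the constitutive (left) and inducible (right) catalytic subunits in each library, 3 DKO bars then 3 WT bars per panel. The constitutive bars lie between 496 and 580.3 TPM in all libraries, while the inducible bars spread from 55.0 TPM in WT 5 to 212 TPM in DKO 7.

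Within libraries, the log2 ratio Psmb10:Psmb7 was -1.96 ± 0.48 in DKO and -2.75 ± 0.22 in WT (SD, n = 3 each; exact two-sided permutation test p = 0.1, the smallest value 3 against 3 allows; 0.3 adjusted over 3 ratios). The ratio Psmb9:Psmb6 was -2.23 ± 1.16 in DKO and -3.31 ± 0.50 in WT (exact permutation p = 0.2, adjusted 0.3). The ratio Psmb8:Psmb5 was -2.35 ± 1.07 in DKO and -3.12 ± 0.09 in WT (exact permutation p = 0.4, adjusted 0.4). The SD was larger in DKO than in WT for all 3 ratios, and DKO 7 was the highest library. Without DKO 7 the DKO minus WT differences were 0.55 for Psmb10:Psmb7, 0.49 for Psmb9:Psmb6 and 0.18 for Psmb8:Psmb5, against 0.79, 1.08 and 0.77 with all libraries. Among the 5 inducible genes, which include the activator subunits Psme1 and Psme2, limma called none and 1 had an unadjusted p under 0.05 (Psmb10). Psme1 had 279, 207 and 223 TPM in DKO, against 197, 194 and 198 TPM in WT, and Psme2 had 160.5, 104 and 103.5 TPM in DKO, against 86.8, 96.3 and 102 TPM in WT. Both had groups that did not overlap, with DKO 7 the highest library. Summed macrophage markers were 394, 320.1 and 279 TPM in DKO 7, 8 and 9, against 164, 122 and 192 TPM in WT, with none of the 6 at 0, and their part in the inducible values was not tested.

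Of 24 tested partners that cap, build or serve the proteasome, 1 was higher and 3 were lower. That is 16.7% in all, against 10.7% of all genes tested. The 24 pool 3 lists that were planned apart. Called were 1 of 3 caps and inhibitor genes, 1 of 5 assembly chaperones and 2 of 16 associated factors (12.5%). The uncalled activator genes Psme1 and Psme2 were counted with the inducible list. Psme4, an alternative cap of the core particle, fell to 185, 166 and 190.1 TPM in DKO, against 241, 247 and 241 TPM in WT, a difference of -0.43 (SE 0.07; limma, BH adjusted p = 0.0136). The other caps and inhibitor, Psme3 and Psmf1, were not called. Pomp, the maturation factor of the core particle, fell to 164, 172 and 174 TPM in DKO, against 210.3, 193 and 216 TPM in WT (-0.28, SE 0.07; limma, BH adjusted p = 0.0443). The core assembly chaperones Psmg1 to Psmg4 were not called, and Paaf1 of the same list is not analysed here. For both called genes the DKO values lay entirely below the WT values. The Psme4 call held in all 6 fits that left out 1 library, whereas Pomp was called in none of them (limma, BH adjusted p = 0.0507 to 0.133). The Psme4 call was lost with Y-linked libraries alone (0.178), with the sex-linked term (0.181) and with replicate 7 as WT (0.501).

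The 2 deubiquitinating enzymes that dock on the regulatory particle went opposite ways. Uchl5 rose to 33.5, 32.8 and 28.5 TPM in DKO, against 18.9, 19.4 and 17.6 TPM in WT, a difference of 0.73 (SE 0.10; limma, BH adjusted p = 0.00794). Usp14 fell to 33.8, 35.3 and 33.3 TPM in DKO, against 47.4, 43.8 and 41.2 TPM in WT, a difference of -0.36 (SE 0.08; limma, BH adjusted p = 0.0381). Neither overlapped between the genotypes. Uchl5 stayed called in all 6 fits that left out 1 library and Usp14 in none (limma, BH adjusted p = 0.0663 to 0.109). Both calls were lost with the sex-linked term (limma, BH adjusted p = 0.116 for Uchl5 and 0.229 for Usp14). They were also lost with replicate 7 as WT (0.541 and 0.542). The Usp14 call was lost as well without trend (0.0685) and without a filter (0.0614). With Y-linked libraries alone, where DKO 9 is the only DKO library, the differences were 0.59 for Uchl5 and -0.40 for Usp14. Uchl5 and Usp14 were the 2 called genes of 16 associated factors, which also include the ubiquitin receptor Adrm1 and the shuttle factor Ubqln1. Over the 59 other listed genes tested (inducible, cap, assembly, associated, regulator, ubiquitin and ligase genes), 4 were higher and 5 lower, 9 in all or 15.3%, against 10.7% of all genes tested.

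**Figure D5:**
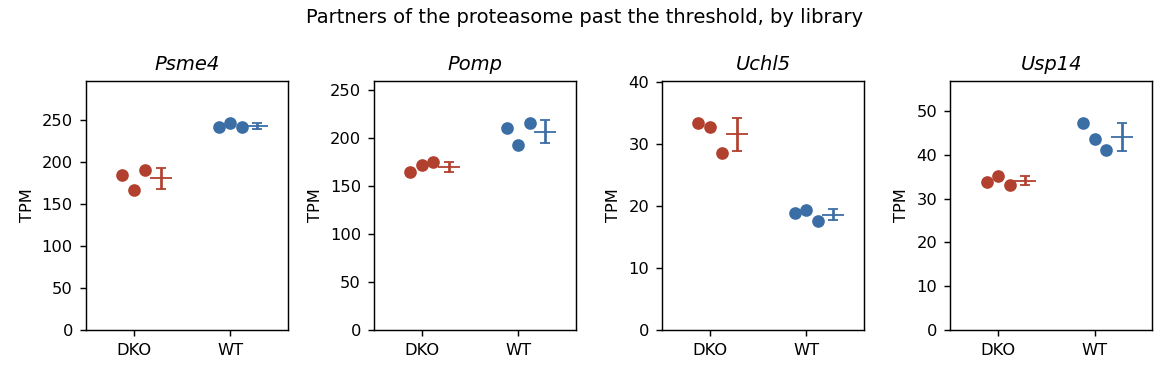
TPM of 4 proteasome partners past the adjusted threshold, with 3 DKO and 3 WT libraries as dots and mean and SD as bars. Psme4, Pomp and Usp14 lie lower in all DKO libraries, and Uchl5 lies higher.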

How the data were processed

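The authors deposited 1 table of TPM values, 1 per gene and library, unpooled. The tools named are bcl2fastq and kallisto 0.44.0, and the build mm10, per the submitters' processing notes. How transcripts were annotated and summed to genes is not stated. TPM keeps no depth, and reads of near-identical copies are split by estimate. The libraries were strand-specific, with 2 × 75-base reads per the labels. Whether quantification used strand is not given in the sources used here.

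Groups follow titles and source names. Log2(TPM + 1) values were fitted with limma 3.58.1 (lmFit, eBayes with trend; R 4.3.3), two-sided, with BH adjustment over all genes tested. Ratios were tested by exact permutation (scipy 1.17.1). The fit was tested on simulated data. Members and lists were chosen with earlier results of these data known. Every member is named, with values per library for called members, catalytic subunits, Psmd4 and Psmd14. Of other lists, called and inducible genes are named. Members whose groups do not overlap, Psma7, Psma8, Psmb11, Nfe2l1, Nfe2l2, Nfyc and Sp1 were added after their values were seen. Promoters came from RefSeq. A planned comparison of protein sequences was not run.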

Additional observations from a re-analysis of the deposited data

How the results depend on the processing

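No paired analysis was possible because DKO and WT share no replicate number. The summed TPM of the core and of the regulatory particle moved by less than the SD pooled over both groups under the 9 alternatives run for the sums (-0.05 to 0.02 and -0.01 to 0.05 on the log2 scale). Core members called fell to 0 with eBayes without trend, with replicate 7 as WT, with a term for sex-linked transcripts and in the 4 libraries with Y-linked transcripts alone (limma; 1, 2, 2 and 1 with an unadjusted p under 0.05). Regulatory members called fell to 0 under the same 4 (4, 0, 2 and 0 unadjusted), with array weights, without a filter and with quantile scaling (6, 7 and 6 unadjusted), and were 2 with median-ratio scaling (Psmc6 and Psmd3) and 2 when rescaled without haemoglobin and structural RNA (Psmd4 and Psmd10). Other listed genes called numbered 5 without trend, 3 without a filter, and 0 with replicate 7 as WT, with the sex-linked term or in the Y-linked libraries alone (4, 11 and 10 unadjusted). All genes called were then 1, 92 and 12. Over all genes tested, 7.44% were called without trend, 2.64% without a filter, 11.7% with array weights, 11.5% with quantile and 12% with median-ratio scaling, and 13.9% when rescaled. Leaving out 1 library gave 0 to 1 core, 0 to 1 regulatory and 4 to 6 other calls, with 4.28% to 6.03% of all genes called. Mbnl1 missed the threshold at -0.52 with the sex-linked term and in the Y-linked libraries, and at -0.37 with replicate 7 as WT. Mbnl2 missed it at 0.49 without trend and without a filter, at 0.54 with the sex-linked term and in the Y-linked libraries, at 0.42 with replicate 7 as WT, and gave 0.41 to 0.58 with 1 library left out, where it was called only without WT 4 (limma, BH adjusted p = 0.0226, against 0.0548 to 0.0777 in the other 5). Psmb2 stayed between -0.40 and -0.32 and Psmd10 between 0.41 and 0.65 in all 17 alternatives.

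With replicate 7 as WT the differences of Psmb8:Psmb5 (-0.30), Psmb9:Psmb6 (-0.073), Psmb8 (-0.28), Psme2 (-0.059) and Psmb5 (0.014) reversed. With the sex-linked term or the Y-linked libraries alone Psmb8 was -0.15 and Psmb5 0.040, and with array weights Psmd14 was 0.013. With 1 library left out Psmb5 ranged from -0.12 to 0.0009, Psmd14 from -0.092 to 0.094 and Psma8 from -0.039 to 0.61. Of the 36 members, 14 changed sign under at least 1 alternative, and 22 did not. The causes were not tested.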

Other observations

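Ubiquitin genes and muscle ubiquitin ligases mark proteins for the proteasome. Of 9 ubiquitin and segregase genes, 1 was higher and 0 lower (limma; 4 with an unadjusted p under 0.05). That is 11.1% called, near the 10.7% of all genes tested, and 44.4% at the unadjusted p, against 27% of all genes tested. Rps27a, which encodes ubiquitin fused to a ribosomal protein, rose to 567, 576.5 and 568 TPM in DKO 7, 8 and 9, against 428, 425 and 417 TPM in WT 4, 5 and 6 (0.43, SE 0.05; limma, BH adjusted p = 0.00600). All DKO libraries were above all WT libraries. The call was lost with a term for sex-linked transcripts (limma, BH adjusted p = 0.0893), with Y-linked libraries alone (0.143) and with replicate 7 as WT (0.501).

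Of 11 muscle ligase genes, 2 were higher and 2 lower (limma; 6 with an unadjusted p under 0.05), or 36.4% called and 54.5% at the unadjusted p, against 10.7% and 27% of all genes tested. Trim55, a sarcomere-bound ligase, rose to 179.5, 167 and 175 TPM in DKO, against 105, 128 and 124 TPM in WT (0.54; limma, BH adjusted p = 0.0141), while its relative Trim54 fell to 121, 134 and 119 TPM, against 222, 163 and 236 TPM in WT (-0.71; limma, BH adjusted p = 0.0261). Asb2 rose by 0.45 and Fbxo21 fell by 0.56 on the log2 scale (limma, BH adjusted p = 0.0157 and 0.0340). The atrophy ligases Fbxo32 and Trim63 were not called. Fbxo32 had 84.3, 83.1 and 93.4 TPM in DKO, against 102, 98.3 and 98.1 TPM in WT. Every DKO value of Fbxo32 was below every WT value (-0.19; limma, BH adjusted p = 0.130). Trim63 had 190.1, 221 and 210.2 TPM in DKO, against 193, 237 and 225 TPM in WT, and its groups overlapped. Trim54 stayed called without WT 5 and Fbxo21 without DKO 9, and neither was called in the 5 other fits that left out 1 library. Trim55 stayed called in all 6 such fits, and Asb2 in all but the one without DKO 8 (limma, BH adjusted p = 0.0576). Without a filter none of the 4 was called (Asb2 0.0549, Trim55 0.0564, Fbxo21 0.105, Trim54 0.113), nor with the sex-linked term, with Y-linked libraries alone or with replicate 7 as WT. These genes are members of lists chosen with earlier results of these data known.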
